A study of Mus musculus with 4 samples.

Results

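Circular RNAs (circRNAs) that span more than 15 kb of the mouse genome were followed in heart tissue after sham surgery and after ischemia/reperfusion (I/R). They were chosen by 3 properties: an identifier in circBase, a public collection of circRNAs, a host gene in the deposited annotation, and a distance between the back-splice sites above 15000 bp. Of 1046 circRNAs in the series, 709 had a circBase identifier, and 210 with a host gene passed the length limit. These 210 lay in 166 host genes and held 1470 of the 7303 back-splice reads (20.1%). Of the 41 with enough reads to be tested, 0 passed an adjusted p of 0.05 between I/R and sham, and so did 0 of all 158 circRNAs tested (0.0%). The non-junction reads at the splice sites passed for 2 of 31, Cpeb3 and Mlip, both higher in I/R, against 8.82% of all 102 circRNAs tested, so the share among the long ones was near that of the rest. Neither call held without TMM scaling (trimmed mean of M-values, which evens out composition between libraries) or without either I/R library.

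All 4 libraries were made from total RNA of C57BL/6 mouse hearts. Libraries sham 1 and sham 2 came from sham-operated mice, and I/R 3 and I/R 4 came from a model of myocardial injury in which blood flow is stopped and then restored. The sources used here do not give the age of the mice, the length of ischemia and reperfusion, the region of the heart or any removal of linear RNA. Nothing in the labels ties the libraries to separate animals, so p-values reflect the spread between libraries alone, and part or all of that spread may be technical. The libraries held 1627 to 1982 back-splice reads and listed 391 to 467 circRNAs. The smallest count listed was 2, so a circRNA at 0 in a library had 0 or 1 read there. Host genes of circRNAs included 6 of 12 cardiomyocyte markers, among them Myh6, Ryr2, Slc8a1 and Ttn, 2 of 10 endothelial markers (Pecam1 and Ptprm) and none of the fibroblast, leukocyte or smooth muscle markers.

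A circRNA forms when the splice donor at the end of an exon is joined to the acceptor at the start of the same or an earlier exon, which closes the RNA into a ring without free ends. The genomic span of a circRNA includes introns that are usually spliced out, so a circRNA that reaches across a long stretch of DNA can still be a short RNA. Long introns on either side of the circularized exons are a known feature of circRNA genes, and in the heart the RNA-binding protein Quaking, encoded by Qk, is known to promote the formation of many circRNAs. Rings without free ends resist the exonucleases that degrade linear RNA from its ends.

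The junctions of the circRNAs on which the results turn are shown first, since the back-splice join is the sequence that separates a circle from the linear transcript. The exons were found by matching the span of each circRNA to an acceptor and donor pair within 1 host transcript of the GENCODE M21 annotation (GRCm38), and the letters are those transcripts, not the reads. Each join is written 5′ to 3′ on the strand of the host, with the last 20 nt of the donor exon in lower case and the first 20 nt of the acceptor exon in capitals. Exons are counted from the 5′ end of the matched transcript, and coordinates are those of the files, in mm9. With the whole circles that follow, the 4 joins below belong to the 6 wholly coding circRNAs with the most reads.
Rnf169, chr7:107083672-107104050, minus strand, exon 4 to exon 2: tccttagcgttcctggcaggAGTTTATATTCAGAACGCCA
Arhgap10, chr8:79868539-79889059, minus strand, exon 18 to exon 14: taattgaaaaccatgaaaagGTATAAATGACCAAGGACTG
Gigyf2, chr1:89260679-89276583, plus strand, exon 8 to exon 4: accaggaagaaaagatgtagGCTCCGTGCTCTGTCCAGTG
Rftn1, chr17:50176266-50194952, minus strand, exon 7 to exon 5: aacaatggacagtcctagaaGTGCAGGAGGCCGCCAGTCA

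The circles of Tlk1 and Msrb3 are shown whole, because they show how little of a long span is exon. The Tlk1 circRNA at chr2:70608061-70625052 (minus strand) covers 17.0 kb, of which exons 2 and 3 make 191 nt. The Msrb3 circRNA at chr10:120262164-120289148 (minus strand) covers 27.0 kb, of which exons 3 to 5 make 216 nt, or 0.800% of the span. The capitals mark the first 20 nt of the acceptor exon, to which the last base of the run is joined.
Tlk1, exons 2 to 3: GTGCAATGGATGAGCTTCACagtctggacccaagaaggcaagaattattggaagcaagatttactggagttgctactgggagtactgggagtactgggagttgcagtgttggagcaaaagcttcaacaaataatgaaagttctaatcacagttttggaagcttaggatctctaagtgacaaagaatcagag
Msrb3, exons 3 to 5: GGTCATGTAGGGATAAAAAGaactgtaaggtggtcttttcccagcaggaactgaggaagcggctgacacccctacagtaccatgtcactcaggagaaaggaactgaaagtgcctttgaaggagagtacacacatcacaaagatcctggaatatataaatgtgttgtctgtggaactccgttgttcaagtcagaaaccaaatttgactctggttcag

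The next joins belong to the RNA-binding, calcium-handling and muscle hosts described below. The Ryr2 pair shows 2 circles that share an acceptor exon and differ in the donor exon, so their capitals are the same and their lower-case letters differ.
Cpeb3, chr19:37119012-37142781, minus strand, exon 10 to exon 8: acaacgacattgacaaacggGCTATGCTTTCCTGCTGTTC
Qk, chr17:10431758-10475846, minus strand, exon 4 to exon 2: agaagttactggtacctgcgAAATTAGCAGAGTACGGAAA
Mlip, chr9:77012572-77038544, minus strand, exon 11 to exon 6: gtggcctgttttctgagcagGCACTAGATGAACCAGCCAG
Ryr2, chr13:11851938-11877408, minus strand, exon 29 to exon 24: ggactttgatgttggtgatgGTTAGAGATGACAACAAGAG
Ryr2, chr13:11862119-11877408, minus strand, exon 27 to exon 24: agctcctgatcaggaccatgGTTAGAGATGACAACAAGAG

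The long spans consisted almost wholly of introns. The 210 circRNAs covered 15.1 to 98.8 kb with a median of 25145 bp, 105 of them reached at most 25 kb and 20 exceeded 50 kb. The deposited annotation called 206 exonic and 4 intronic. Of the 210, 196 matched 1 exon pair of their host. Neighbouring matched circRNAs of different hosts within 1 Mb were also compared, over known circRNAs of any length. Of these pairs, 128 of 134 kept their distance between both builds. The long ones were not checked separately. Over the 196 matched long circRNAs, the median number of annotated exons was 5 (quartiles 4 and 7, range 2 to 24). If every annotated exon is kept and every intron removed, the median spliced length was 622 nt, which was a median of 2.60% of the span. The known circRNAs of 5 to 15 kb had 4 exons and 519 nt at the median in a median span of 9286 bp. Those under 5 kb had 2 exons and 329 nt in 2197 bp. The classes were cut by span, so their difference in span was set by that choice, and spliced length was not tested against it.

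**Figure D1:**
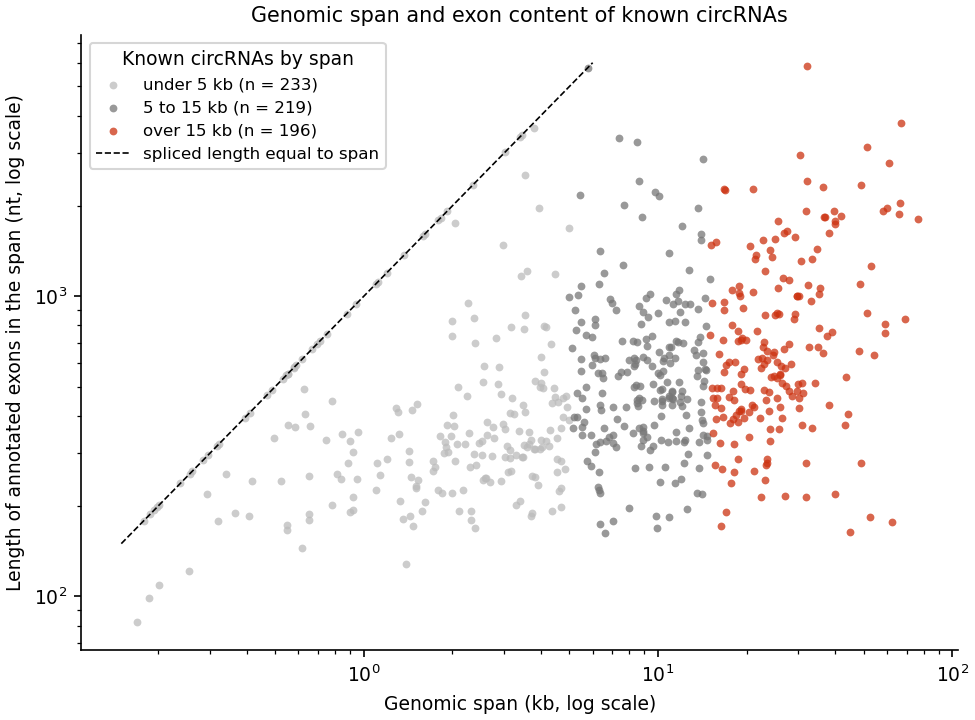
Genomic span (kb, log scale) against the summed length of annotated exons within it (nt, log scale) for known circRNAs matched to 1 exon pair, 1 point each. The 196 long circRNAs (red) lie far below the dashed line of equal length, and most of them lie within the height range of the shorter classes.

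Tcf20, which encodes a transcriptional regulator, had the longest spliced length, 5866 nt from exons 2 and 3 in a span of 32.1 kb. Utrn, the gene of the dystrophin-related protein utrophin, had the circle with the most exons, 24 (exons 27 to 50) within 67.2 kb and 3786 nt. The smallest share of a span was that of Hivep2, a zinc finger transcription factor gene, whose exons 2 and 3 made 177 nt in 62.5 kb (0.283%). The shortest spliced length was 164 nt, from exons 2 to 4 of Tfdp2, a transcription factor gene of the cell cycle, in a span of 45.0 kb. The longest circRNA of all, at 98.8 kb on chr2:76912893-77011664, carried the microRNA host label Mir684-1, was called intronic, matched no exon pair and had 2 reads in I/R 3 and 0 in the other libraries.

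Exon 2 was the most frequent acceptor. In 93 of the 196 matched circRNAs (47.4%) the circle began at exon 2, against 45.2% of the known circRNAs of 5 to 15 kb and 35.2% of those under 5 kb. In 154 (78.6%) every exon base was coding in the matched transcript, against 78.3% of the known circRNAs of 15 kb or less. The spliced length was a multiple of 3 in 76 (38.8%), against 33.0%. The intron before the acceptor had a median length of 14833 bp and the intron after the donor 16245 bp, against 12805.5 and 9590 bp for the shorter known circRNAs. The choice of transcript bears on exon numbers, and these shares carry no test.

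CircRNAs near the length limit included recurrent and rare ones on either side of it. Just above it lay Ehbp1 at 15075 bp with 4 and 3 reads in the sham libraries and 4 and 5 in the I/R libraries, Dennd5a at 15100 bp with 3 reads in sham 1 alone, Tdrd3 at 15212 bp with 3, 0, 0 and 3, and the shorter of the Ryr2 pair at 15290 bp. Just below it lay Bard1 at 14985 bp with 2 reads in sham 1 alone, Asxl2 at 14736 bp with 2 in sham 2 alone, Zmynd11 at 14694 bp with 4, 2, 2 and 2, and Cdk8 at 14645 bp with 3 in I/R 4 alone.

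Reads were concentrated in a few of the long circRNAs. The 2 with the most reads, from Tlk1 and Rnf169, held 149 of the 1470 reads (10.1%), the top 10 held 26.7%, and 86 of the 210 had 2 reads in all. Tlk1, which encodes a kinase that acts on histone chaperones, had 18 and 22 back-splice reads in the sham libraries and 28 and 19 in the I/R libraries. Rnf169, the gene of a ubiquitin-binding protein of the DNA damage response, had 20, 16, 16 and 10 in the same order. Tlk1 was the highest of the long circRNAs in sham 2, I/R 3 and I/R 4, and Rnf169 was the highest in sham 1.

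**Figure D2:**
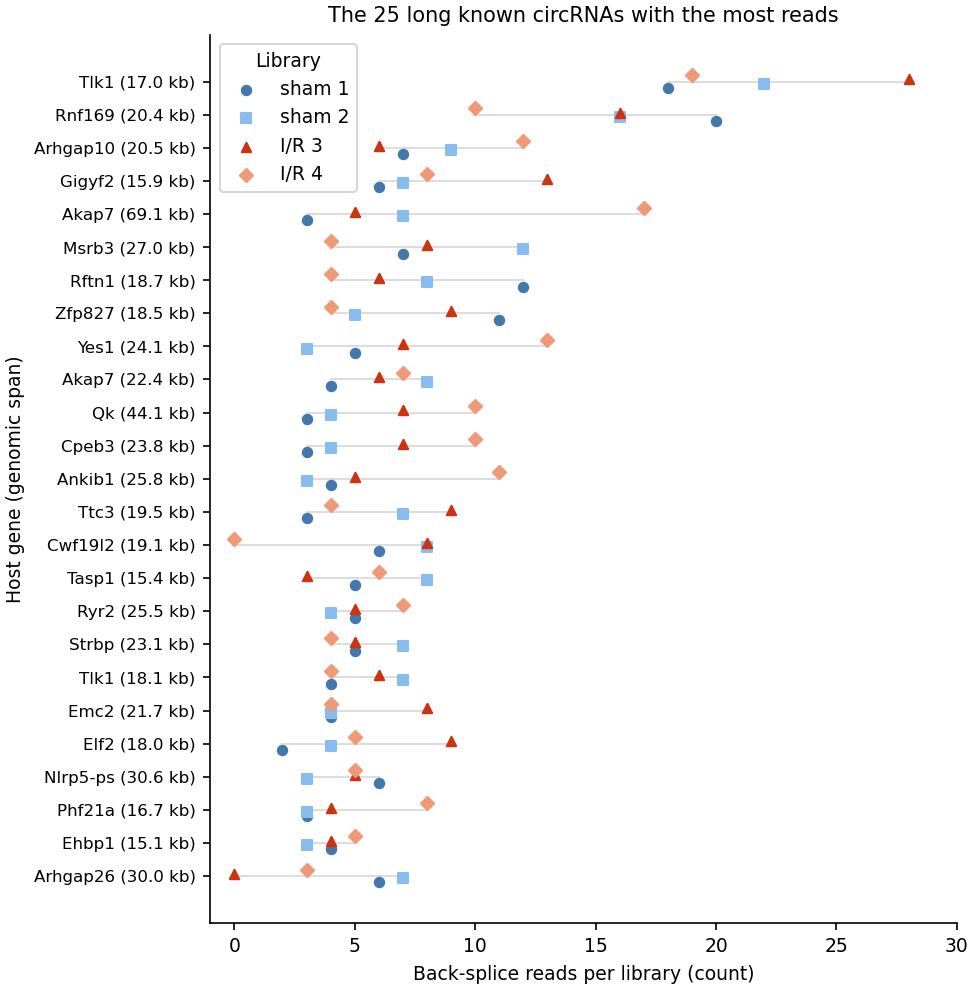
Back-splice reads per library (counts, horizontal axis) for the 25 long known circRNAs with the most reads, 1 symbol per library and a grey line over the range. Tlk1 (17.0 kb) reaches 28 reads in I/R 3, and most of the others stay under 15; a point at 0 stands for 0 or 1 read.

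Most long circRNAs were seen in a single library. Of the 210, 119 (56.7%) were listed in 1 library, against 59.8% of the 493 known circRNAs of 15 kb or less, 37 (17.6%) in 2, 23 (11.0%) in 3 and 31 (14.8%, exact 95% interval 10.3 to 20.3) in all 4. Among the 493 shorter ones, 50 (10.1%) were listed in all 4 libraries. The 31 recurrent long circRNAs held 770 reads, 52.4% of the reads of the long set, and the 50 shorter ones held 46.0% of theirs. CircRNAs of 1 host share its transcription, so the interval covers counting error only and the shares were not tested against each other. Of the 31, 30 matched an exon pair, and 18 of these (60.0%) began at exon 2.

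The share of reads taken by long circRNAs overlapped between the groups. They took 19.1% of the back-splice reads in sham 1 (exact 95% interval 17.4 to 20.9), 22.2% in sham 2 (20.2 to 24.3), 18.1% in I/R 3 (16.4 to 19.98) and 21.2% in I/R 4 (19.5 to 23.1). The means were 20.6% ± 2.18 for sham and 19.7% ± 2.20 for I/R (SD, n = 2 each), and the groups overlapped (two-sided exact permutation p = 0.667; with 2 against 2 libraries no p can go below 0.33). The number listed was 99 in each sham library, 75 in I/R 3 and 113 in I/R 4, so the I/R libraries lay on either side of the sham libraries (exact permutation p = 1.0). A listed long circRNA had 3.65, 3.65, 4.36 and 3.73 reads on average, and a listed shorter one 3.66, 3.94, 4.07 and 4.16. The mean difference within libraries was -0.111 reads (two-sided exact sign-flip permutation p = 0.5, where the smallest possible is 1 in 8). In whole tissue, fewer cells of a type and less RNA per cell cannot be told apart.

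**Figure D3:**
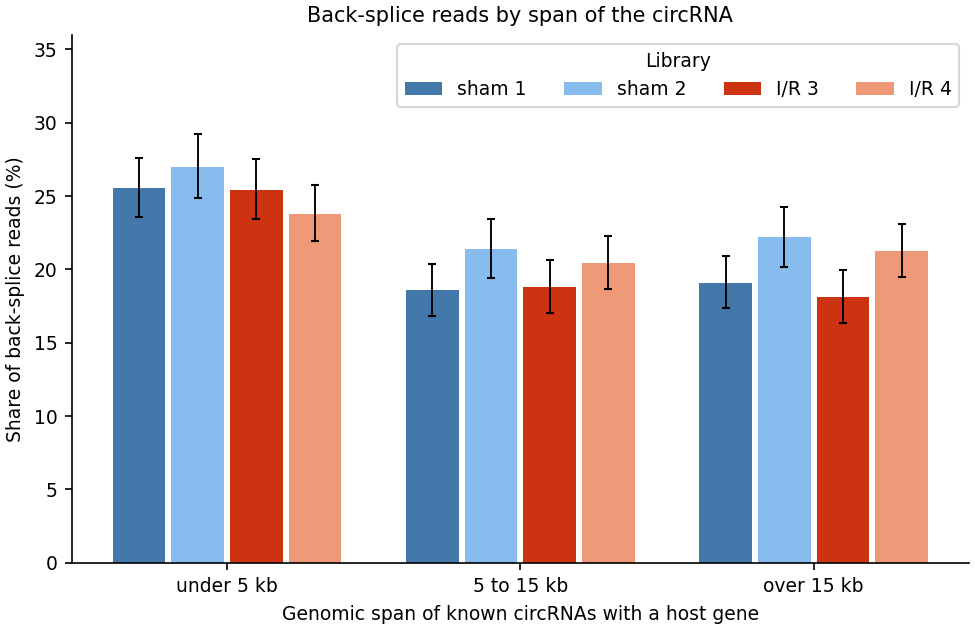
Share of each library's back-splice reads (%, bars from 0) taken by known circRNAs under 5 kb, of 5 to 15 kb and over 15 kb; error bars are exact 95% binomial intervals for counting error. In the class over 15 kb the shares run from 18.1% in I/R 3 to 22.2% in sham 2, and the sham and I/R bars interleave.

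Genes with several long circRNAs mostly reused a splice site. Of the 166 hosts, 135 had 1 long circRNA, 21 had 2 and 10 had 3 or more. In 22 of the 31 hosts with several, at least 2 of the circles shared a start or an end. Over the 210, 87 (41.4%) shared their acceptor with another listed circRNA of any length and 25 (11.9%) shared their donor, and 110 shared neither. Of the hosts, 74 also had a circRNA outside the long set.

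Mlip, which encodes a muscle-enriched protein that binds lamin A, had the most, with 5 long circRNAs and 37 reads. Its 26.0 kb circle from exons 6 to 11 had 3, 2, 4 and 5 reads, and the 43.1 kb circle had 2, 2, 0 and 6. The 66.3 kb circle had 5 reads in sham 1 and 2 in I/R 4, and was not listed in the others. The remaining circles of 66.2 and 16.6 kb had 4 and 2 reads in all. Of the 5, the 26.0 kb circle alone was listed in every library.

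Tlk1 had 3 long circRNAs with the same acceptor, exon 2. The 17.0 kb circle that ends with exon 3 held 87 of their 110 reads, the 18.1 kb circle that ends with exon 4 had 4, 7, 6 and 4, and the 48.6 kb circle that ends with exon 12 had 2 in sham 2 alone. Akap7, the gene of an anchoring protein for protein kinase A, also paired 2 circles at its exon 2. The 69.1 kb circle at chr10:24940417-25009536 (exons 2 to 7, 840 nt) had 3, 7, 5 and 17 reads, and the 22.4 kb circle at chr10:24987114-25009536 (exons 2 to 5, 579 nt) had 4, 8, 6 and 7. The longer Akap7 circle had 1 read fewer than the shorter in sham 1, sham 2 and I/R 3, and more in I/R 4.

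Strn3, which encodes a striatin subunit of a phosphatase complex, had 3 long circRNAs with 16 reads in all, with the same acceptor as 2 shorter circRNAs that held 202 reads. In Tulp4 the acceptor of an intronic long circRNA (4, 2, 0 and 2 reads) was that of a shorter one with 101 reads. Cbfb, the gene of the core-binding factor beta subunit, had 2 long circRNAs that share the acceptor of exon 3 and end at 2 donor sites of exon 5, with spliced lengths of 361 and 330 nt. The form with 361 nt, of 24.0 kb at chr8:107702493-107726478, had 4, 3, 3 and 0 reads. Further hosts with 3 long circRNAs were Scaper with 23 reads, Ubn2 with 19, Atp9b with 9, Bbs9 with 8 and Kansl1l with 7.

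Kinase and GTPase signalling, the list with the most genes, had 34 long circRNAs from 24 of its 181 genes and 395 reads. Besides Tlk1 and Akap7 it held Arhgap10, a GTPase-activating protein gene, whose 20.5 kb circle had 7, 9, 6 and 12 reads. Rftn1, the gene of the lipid raft protein raftlin, had 12, 8, 6 and 4, so both I/R libraries lay below both sham libraries. Rftn1 and Tulp4 were on this list and in its counts, though neither encodes a kinase or a GTPase regulator. Yes1, a Src-family tyrosine kinase gene, had 5, 3, 7 and 13 on a 24.1 kb circle of exons 2 to 11 at chr5:32942704-32966773, and both I/R libraries lay above both sham libraries. Of 10 circRNAs of this list tested between the groups, 0 passed, 7 had a fold change above 0 and 3 below, Rftn1 among the latter.

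The ubiquitin and protein turnover list had 8 long circRNAs from 7 of its 91 genes and 118 reads, led by Rnf169. Ankib1, which encodes an E3 ubiquitin ligase, had 4, 3, 5 and 11 reads, with the I/R libraries above the sham libraries. Ube2k, the gene of a ubiquitin-conjugating enzyme, had 3, 0, 5 and 3. Of 3 tested, 0 passed, with 2 fold changes above 0 and 1 below. These counts leave out the deubiquitinase gene Usp3, with 15 reads on a long circRNA, and the ubiquitin ligase gene Hace1, with 2, which are not on the list.

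The RNA-binding and splicing list had 9 long circRNAs from 9 of its 48 genes and 96 reads. Cpeb3, which binds cytoplasmic polyadenylation elements, and Qk each had 3 and 4 reads in the sham libraries and 7 and 10 in the I/R libraries. In both genes the I/R libraries lay above the sham libraries. Strbp, which encodes a double-stranded RNA-binding protein, had 5, 7, 5 and 4, with overlap. Of 3 tested, 0 passed, with 2 fold changes above 0 and 1 below.

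The transcription and chromatin list had 16 long circRNAs from 12 of its 141 genes and 96 reads. Elf2, an ETS-family transcription factor gene, had 2, 4, 9 and 5 reads, and Phf21a, a histone reader of a demethylase complex, had 3, 3, 4 and 8, both without overlap of the groups. The 72.0 kb intronic circRNA of Zeb1, a transcriptional repressor gene, had 2, 6, 2 and 3. Of 3 tested, 0 passed, with 2 fold changes above 0 and 1 below. These counts leave out hosts of this kind that are not on the list, among them Cbfb, Zfp827, Zfp644, Ubn2 and Jmjd1c. Of their tested circles, those of Cbfb (24.0 kb) and Zfp827 (18.5 kb) had log2 fold changes of -1.14 and -0.28. Those of Zfp644 (20.6 kb) and Ubn2 (51.5 kb) had 1.18 and 0.80, so the direction was not shared.

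The calcium and ion handling list was represented by Ryr2, Slc8a1 and Asph, 3 of its 27 genes, with 7 long circRNAs and 61 reads. The cation channel gene Trpc6, outside the list, had a long circRNA with 12 reads. Ryr2, the calcium release channel of the sarcoplasmic reticulum, had 5, 4, 5 and 7 reads on the 25.5 kb circle and 2, 4, 2 and 7 on the 15.3 kb circle. Slc8a1, the sodium-calcium exchanger gene, had 0, 4, 2 and 2 on its 17.4 kb circle. The 2 tested of the list were these Ryr2 circles, which share an acceptor. Of them 0 passed, and both fold changes lay above 0. The sarcomere and cytoskeleton list had 11 long circRNAs from 6 of its 48 genes and 58 reads. Beside Mlip it held Utrn, whose 19.3 kb circle had 3, 2, 3 and 2 reads. The 3 tested were 2 circles of Mlip and this circle of Utrn. Of them 0 passed, and all 3 fitted fold changes lay above 0. In the authors' own comparison the log2 fold changes were 0.738 and -0.482 for the Mlip circles and -0.0137 for Utrn, so the direction was not shared. Hosts of this kind outside the list included Sorbs2, with 4 reads on a long circRNA, and Ablim3 and Myo1e, with 2 each.

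Back-splice reads of cardiomyocyte marker hosts, over circRNAs of any length, numbered 271 and 170 in the sham libraries and 269 and 378 in the I/R libraries, so they were highest in I/R 4. Those of endothelial markers numbered 6, 7, 6 and 10. None of the fibroblast, leukocyte or smooth muscle markers hosted a listed circRNA in any library. Back-splice reads do not measure the expression of these genes or the presence of these cells. The long circRNAs of cardiomyocyte marker hosts numbered 5, with 10, 12, 9 and 19 reads. Their part in the values of Ryr2, Slc8a1 and Mlip was not tested.

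Membrane trafficking hosts (9 of 102 genes) gave 12 long circRNAs and 57 reads, with Picalm, a clathrin adaptor gene, at 2, 6, 0 and 3 and Stx6, a SNARE protein gene, at 2, 4, 4 and 2. Of 2 tested, 0 passed, with 1 fold change above 0 and 1 below. Adhesion and matrix hosts on the list (Fndc3b, Fndc3a, Magi1 and Pard3, 4 of 67 genes) gave 5 long circRNAs. They had 12 and 5 reads in the sham libraries and 0 and 3 in the I/R libraries, and none reached the read minimum of the test. The adhesion gene Nectin3 and the matrix gene Smoc2 lie outside the list. Each had a long circRNA with 3 reads and a log2 fold change of 1.39 in the authors' own comparison, so these counts describe the list alone. Energy metabolism, with 1 host of 62 genes, was represented by 1, from the ketone body enzyme gene Oxct1, with 2 reads in I/R 4 alone. The other 107 long circRNAs, with 567 reads, had hosts in no list, though some of these genes are of the kinds above. Among them were Gigyf2, which represses translation at the mRNA cap, with 6, 7, 13 and 8 reads, and Msrb3, a methionine sulfoxide reductase gene, with 7, 12, 8 and 4. The zinc finger gene Zfp827 had 11, 5, 9 and 4 on its 18.5 kb circle. The groups overlapped in Msrb3 and Zfp827. In Gigyf2 both I/R counts were higher, but the groups overlapped once the reads were divided by the library total.

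The circular share compares back-splice reads with the non-junction reads at its splice sites, as 2 times the former over that amount plus the latter. Among the 31 long circRNAs listed in every library, the pooled share ran from 0.686% to 57.6% with a median of 18.5%. The highest was that of Nlrp5-ps, a pseudogene of an NLR-family gene, with 57.1 and 42.9% in the sham libraries and 58.8 and 71.4% in the I/R libraries. Tasp1, the gene of a threonine protease, had 41.7, 45.7, 40 and 60%. Rnf169 had 54.1, 40.5, 48.5 and 41.7%, and Tlk1 had 29.0, 29.3, 34.6 and 23.2%. With 28 to 47 non-junction reads per library at Rnf169 and 4 to 9 at Nlrp5-ps, these shares rest on few reads.

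At the other end stood the 2 Ryr2 circles. Their pooled shares were 0.686% for the 15.3 kb circle and 0.841% for the 25.5 kb circle, and 1039 to 1375 non-junction reads per library lay at the splice sites of the latter. Qk had 1.19, 1.54, 2.50 and 2.90% with 500, 513, 545 and 669 non-junction reads. Stk39, a kinase gene that regulates ion cotransporters, had a pooled share of 4.26%, and Mlip (26.0 kb) 4.87%. The order of the circRNAs was closer between libraries by share than by reads. Over the 31, Spearman's rho between 2 libraries was 0.752 to 0.898 for the circular share and 0.193 to 0.518 for the reads, as a description over circRNAs that share their libraries and depth.

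**Figure D4:**
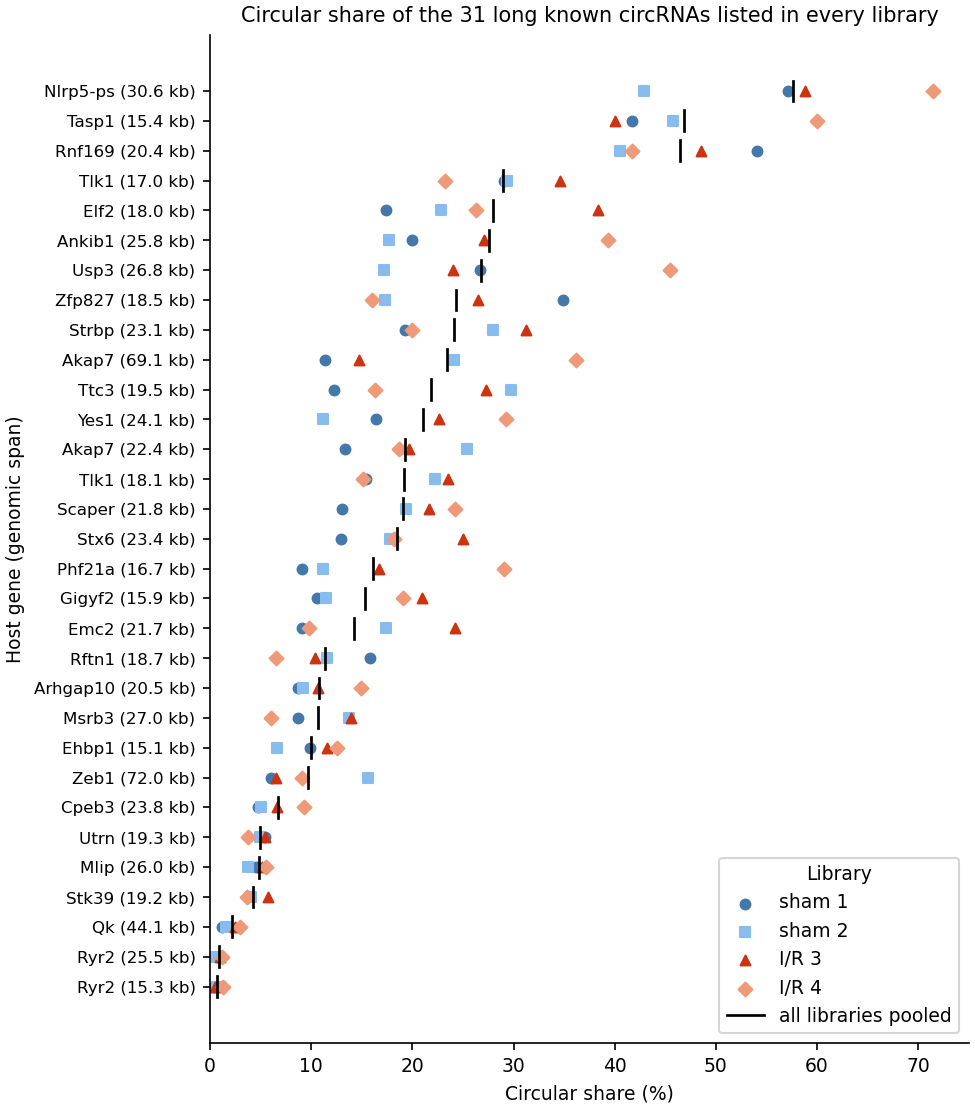
Circular share (%, horizontal axis) of the 31 long known circRNAs listed in every library, 1 symbol per library and a black bar for the 4 libraries pooled, ordered by the pooled share. The pooled shares run from 0.686% (Ryr2, 15.3 kb) to 57.6% (Nlrp5-ps); in rows such as Gigyf2 and Yes1 both I/R symbols (red) lie to the right of both sham symbols (blue).

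Summed over the long circRNAs listed in a library, the circular share was 6.04% in sham 1, 6.51% in sham 2, 8.22% in I/R 3 and 6.21% in I/R 4. The means were 6.28% ± 0.3334 and 7.22% ± 1.43 (SD, n = 2 each), and I/R 4 lay between the sham libraries (two-sided exact permutation p = 0.667). Without I/R 3 the I/R mean less the sham mean was -0.0701 percentage points, so the direction rested on that library. The median share of the listed long circRNAs was 9.1 and 9% in the sham libraries and 11.6 and 9.5% in the I/R libraries, without overlap (exact permutation p = 0.33, the smallest possible).

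Against known circRNAs of 15 kb or less, the summed share of the long ones was higher by 1.08, 1.73 and 1.29 points in sham 1, I/R 3 and I/R 4 and lower in sham 2, with a difference of -0.274 (mean 0.957 ± 0.865, SD, n = 4; two-sided exact sign-flip permutation p = 0.25). By the median over circRNAs the mean difference was 0.325 points, with -0.1 in sham 2 and I/R 4 (exact sign-flip permutation p = 0.5). Against known circRNAs under 5 kb the mean difference was 1.84 points (exact sign-flip permutation p of 1 in 8). Against those of 5 to 15 kb the direction turned, with a mean difference of -0.969 points and the same sign in 4 of 4 libraries (the exact sign-flip permutation p was 1 in 8, the smallest possible).

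In I/R against sham, no long circRNA passed the test on back-splice reads. Of 158 circRNAs with at least 10 reads in all and reads in at least 2 libraries, edgeR's quasi-likelihood test with Benjamini-Hochberg adjustment called 0 (0.0%), among them 0 of the 41 long ones, whose smallest adjusted p was 0.660. At an unadjusted p under 0.05 there were 2 of 41 long circRNAs, against 5.7% of all tested. DESeq2 and limma-voom also called 0, with 0 and 3 long circRNAs at an unadjusted p under 0.05. The fitted fold change lay above 0 for 29 of the 41 and below for 12, with a median log2 fold change of 0.37, against 90 of 158 above 0 and a median of 0.06 over all tested. This median was 0.12 to 0.28 with 1 library left out, 0.25 without TMM scaling, 0.13 over the 21 with at least 20 reads and 0.01 over all 210 without a filter.

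**Figure D5:**
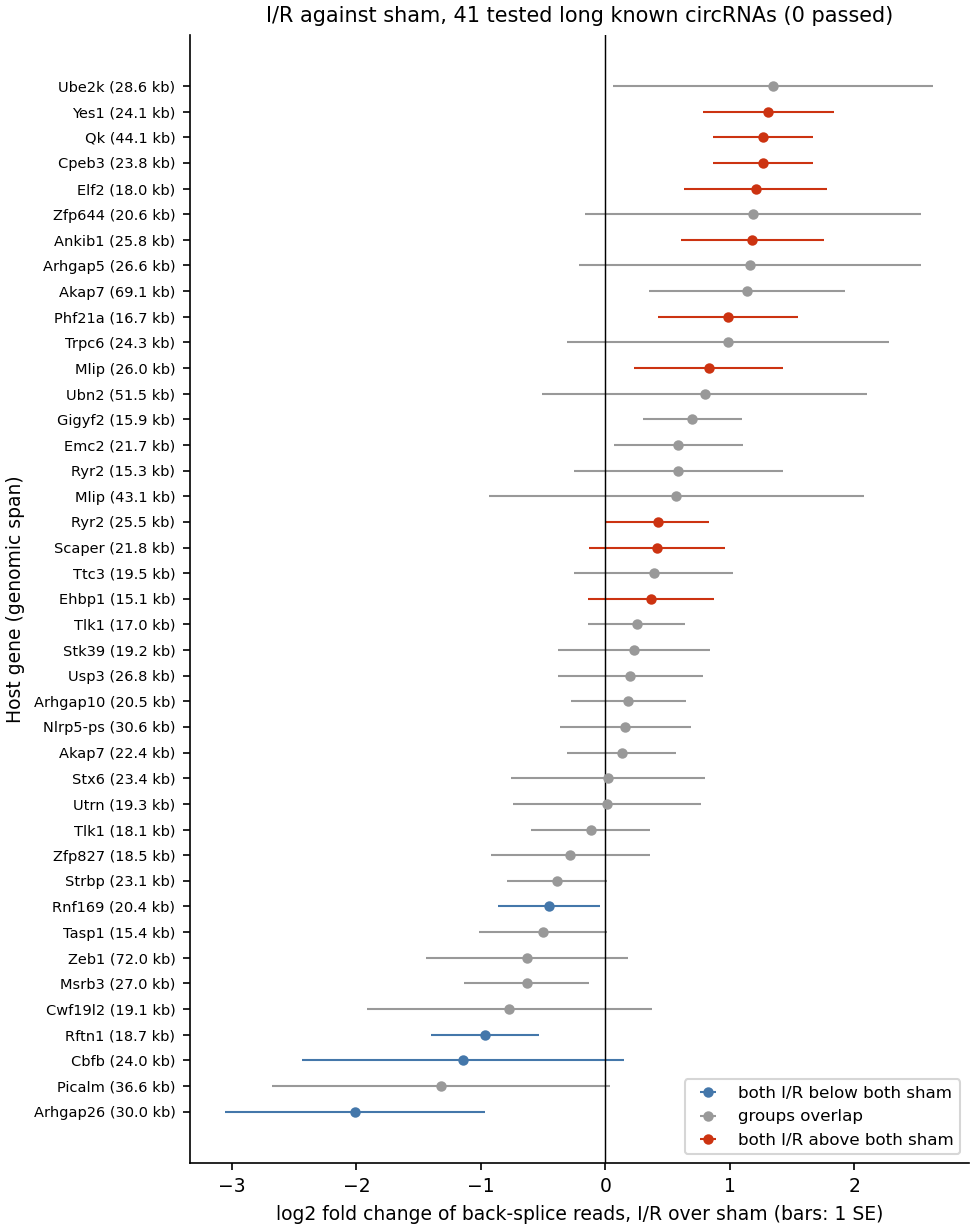
Fitted log2 fold change of back-splice reads, I/R over sham (horizontal axis), for the 41 long known circRNAs tested; bars are 1 SE, and colours show whether the 2 I/R libraries lie above or below the 2 sham libraries in reads over the library total. None passed an adjusted p of 0.05, and 29 of the 41 points lie to the right of 0.

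In reads over the library total, both I/R libraries lay above both sham libraries in 10 of the 41 long circRNAs, against 17.7% of all tested, and below in 4, against 20.9%. With TMM factors, tried after the data had been seen, the counts were 9 (17.1% of all) and 3 (20.3%). Qk and Cpeb3 had the smallest p among those above, each with a log2 fold change of 1.27 (SE 0.40, adjusted p = 0.660 by edgeR). Yes1 had 1.31 (SE 0.52), Elf2 with 1.21 (SE 0.57), Ankib1 with 1.18 (SE 0.57) and Phf21a with 0.99 (SE 0.56), each with an edgeR adjusted p of 0.920. The smaller ones were Mlip (26.0 kb) at 0.83, Ryr2 (25.5 kb) at 0.42, Scaper (21.8 kb) at 0.42 and Ehbp1 at 0.37. Single libraries moved several of these values: without I/R 4 the log2 fold change was 0.74 for Yes1, 0.45 for Ankib1, 0.36 for Phf21a and 0.10 for Ryr2. Without I/R 3 it was 0.61 for Elf2, and without sham 2 it was 0.87 for Yes1, 0.45 for Mlip and 0.14 for Ryr2. With TMM factors the groups of Ryr2 and Ehbp1 overlapped and those of Gigyf2 no longer did.

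The 4 with both I/R libraries below both sham libraries were Rftn1, with a log2 fold change of -0.97 (SE 0.43), Rnf169 with -0.45 (SE 0.41), Arhgap26 with -2.01 (SE 1.04) and the 24.0 kb Cbfb circle with -1.14 (SE 1.29). Arhgap26, a GTPase-activating protein gene, had 6, 7, 0 and 3 reads on the circle at chr18:39279773-39309772. The Rnf169 count of 16 was the same in sham 2 and I/R 3, and with TMM factors the groups of Rnf169 and Cbfb overlapped, while those of Strbp no longer did. With 1 library left out, Arhgap26 ran from -5.74 (without I/R 4) to -1.18 (without I/R 3), Rnf169 from -0.94 (without I/R 3) to -0.22 (without I/R 4) and Rftn1 from -1.40 (without I/R 3) to -0.64 (without sham 1). Cbfb had -0.26 without I/R 4. In that setting Arhgap26 had 0 reads in its lone I/R library, which can stand for 1 read. The size of its fold change there is therefore uncertain. Among the circRNAs with the most reads, Tlk1 (17.0 kb) had 0.25 (SE 0.39), which went to -0.17 without I/R 3. Gigyf2 had 0.70 (SE 0.40), which went to 0.19 without I/R 3. The 69.1 kb Akap7 circle had 1.14 (SE 0.79), which went to -0.043 without I/R 4, where 17 of its 32 reads lay.

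Non-junction reads lie at the splice sites of a circRNA without crossing its back-splice join. Of 102 circRNAs of any length listed in every library, edgeR's test called 9 (8.82%), 4 higher (3.92%) and 5 lower (4.9%) in I/R. Of the 31 long circRNAs, 2 passed, both higher. Cpeb3 had 120 and 151 non-junction reads in the sham libraries and 198 and 196 in the I/R libraries, a log2 fold change of 0.63 (SE 0.18, edgeR adjusted p = 0.0199). Mlip, at the 26.0 kb circle, had 127 and 103 against 147 and 170, a log2 fold change of 0.55 (SE 0.19, edgeR adjusted p = 0.0489). In both genes the I/R libraries lay above the sham libraries. Without TMM scaling the log2 fold changes were 0.42 for Cpeb3 and 0.35 for Mlip, and neither passed (edgeR adjusted p = 0.298 and 0.334). This setting moved the median log2 fold change of all 102 from -0.04 to -0.23. Without I/R 3 or without I/R 4 neither passed, with log2 fold changes of 0.62 and 0.68 for Cpeb3 and 0.66 and 0.48 for Mlip. Without sham 1 Mlip alone passed, and without sham 2 Cpeb3 alone passed.

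Back-splice and non-junction reads were also set against each other in a single fit with the library as a block. The change of the back-splice reads relative to the non-junction reads passed for 1 of 102 circRNAs (0.98%), which was not a long one, and for 0 of the 31 long ones, whose smallest edgeR adjusted p was 0.797. None of the 31 had an unadjusted p under 0.05, against 3.92% of all. The relative change lay above 0 in 22 of the 31 with a median log2 value of 0.50, against 54 of 102 and 0.07 over all, and leaving out 1 library gave medians of 0.29 to 0.39 for the 31.

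By circular share, both I/R libraries lay above both sham libraries in 14 of the 31 long circRNAs, against 30.4% of the 102. The 14 were Ankib1, Arhgap10 (20.5 kb), Cpeb3, Ehbp1, Elf2, Gigyf2, Mlip, Nlrp5-ps, Phf21a, Qk, Ryr2 (25.5 kb), Scaper, Stx6 and Yes1. Gigyf2 had 10.5 and 11.5% in the sham libraries and 21.0 and 19.05% in the I/R libraries. Its non-junction reads, 102, 108, 98 and 68, were lowest in I/R 4 while its back-splice reads were highest in I/R 3. Yes1 had 16.4 and 11.1% against 22.6 and 29.2%, and Phf21a had 9.09 and 11.1% against 16.7 and 29.1%. Both I/R libraries lay below in 1 of the 31, Rftn1, with 15.8 and 11.6% against 10.3 and 6.5%, where 16.7% of the 102 did so. As given above, none of these differences passed the test.

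Some long circRNAs were listed in both libraries of 1 group and neither of the other. Of the 210 long circRNAs, 12 had reads in both sham libraries alone, against 39 of all 1046 circRNAs. In both I/R libraries alone there were 3 of the 210, against 32 of the 1046. These counts were not tested against each other. The sham set was led by Jmjd1c, a histone demethylase family gene, with 7 and 2 reads, Fndc3b with 5 and 3, Asph, which encodes an aspartate hydroxylase and the calcium-store protein junctin, with 5 and 2, and the deadenylase gene Cnot6l with 4 and 2. The 3 in I/R were Phf20 with 5 and 2 reads, the nonsense-mediated decay endonuclease gene Smg6 with 2 and 4, and Sorbs2, which encodes a sarcomeric adaptor protein, with 2 and 2. Since a value of 0 can stand for 1 read, no fold is given for them. In the authors' deposited table, none of the 210 long circRNAs had an adjusted p under 0.05, against 1.05% of all 1046. Nearest to that threshold in the authors' deposited table stood Fndc3b, with a log2 fold change of -3.14 and an adjusted p of 0.0684, and Jmjd1c, with -3.11 and 0.0836.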

How the data were processed

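The authors deposited, per the file headers, counts of back-splice junction reads and of non-junction reads for each circRNA and library, a fraction made from both, and a comparison table of their own, which holds p-values, score columns and log2 fold changes. The deposited fraction equals the circular share within 0.0005. The submitters' processing notes name HTSeq 0.9.1, BWA 0.7.5a-r405 and the build mm9 without saying what each was used for. The sources used here do not name the program that called the circRNAs. The merged matrix and the library files differed in 0 cells, and 0 read names stood on more than 1 circRNA.

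The members and the lists of host genes were chosen with earlier results of these data known. The lists do not hold every gene of their kind, so counts by list describe the listed genes alone. Deposited counts were tested with edgeR 4.0.16 (quasi-likelihood, TMM, Benjamini-Hochberg at 0.05) over all circRNAs with at least 10 reads and reads in 2 libraries, and alternatively with DESeq2 1.42.0 and limma 3.58.1 (R 4.3.3). The scripts were tested on simulated data. Single values were compared with exact permutation tests, and exact binomial intervals were made with scipy 1.17.1. PCR copies are not separated, so intervals cover counting error only. Each SE is the absolute log2 fold change over the square root of the F statistic of its edgeR test. Circles that are named are those with an adjusted p under 0.05, the most reads, non-overlapping groups, the longest spans, hosts with 3 or more, the most reads of each list, spans nearest the limit, and extreme circular shares. A few others were picked after their values were seen, namely Tcf20, Tfdp2, Jmjd1c, Cnot6l, Asph, Phf20, Sorbs2 and Tulp4. Host symbols (166 of 166) matched the RefSeq table of GRCm38.p6; spans were matched to GENCODE M21 transcripts, and no coordinate was carried between builds. Some items are not reported here.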

Additional observations from a re-analysis of the deposited data

How the results depend on the processing

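No paired analysis was possible because the sham libraries (1 and 2) and the I/R libraries (3 and 4) share no replicate number. With 2 libraries a group no exact test of a single value could pass 0.05, so these tests say nothing about stability, and with 1 library left out its group's lone library is assumed in the fits to vary like the others. The difference in read share (I/R minus sham, -0.961 points) turned to 0.568 without circRNAs of Ttn in the total, and ran from -2.52 to 0.597 with 1 library left out. That in circular share (0.938 points) ran from -0.0701 to 1.95, and that in the number listed (-5) from -24 to 14. The circular share against other known circRNAs (0.957 points) turned to -0.969 with those of 5 to 15 kb as the others. The cause was not tested in these cases. Over all circRNAs, the count passing for back-splice reads (0) was 3 without a filter and 0 to 1 with a library left out, and 0 long ones passed in each of these 9 alternatives. The count for back-splice relative to non-junction reads (1) was 0 with any library left out. The count for non-junction reads (9) was 4 without TMM and 1 to 8 with a library left out, and that of the long ones (2) was 0 without TMM and 0 to 1 with a library left out. The minimum of 10 reads and the depth of 1627 to 1982 back-splice reads a library leave most long circRNAs untested. Over 19 named long circRNAs and 162 values under alternatives, 154 kept the direction of the back-splice fold change. The 8 that turned belonged to 5 circRNAs, whose fold changes with 1 library left out ran from -0.17 to 0.44 for Tlk1 (17.0 kb, lowest without I/R 3), -0.45 to 0.48 for Arhgap10 and -0.043 to 1.71 for the 69.1 kb Akap7 circle (both lowest without I/R 4). They ran from -1.09 to 0.39 for Zfp827 (0.39 without sham 1 and 0.12 without I/R 4). For the 22.4 kb Akap7 circle they ran from -0.27 (without sham 1) to 0.57, with -0.044 without I/R 4, and the value without TMM was -0.0025. The share of circles that begin at exon 2 (47.4%) was 54.1% counting any matched transcript and 41.3% counting those with exon 2 in every one, both added after the data had been seen.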
